A study of Saccharomyces cerevisiae with 9 samples.

Results

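The genes described here build and run the cortical actin patch, the site of clathrin-mediated endocytosis in budding yeast (Saccharomyces cerevisiae). They are 41 genes named from general knowledge of the pathway and matched to rows of the deposited table by systematic name. They were chosen with earlier results of these data known. All 41 were found among the 6268 features of the table, and all 41 had a value on each of the 9 arrays. They fall into 7 roles, from actin and its nucleator to the kinases that take the patch apart.

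Polyadenylated RNA was hybridised to 2-colour arrays. Every strain carries deletions of YPK1 and YPK2, which encode a pair of related kinases, and lives on a plasmid copy of 1 of them, grown in SCD-Leu medium. In the Ypk1 series, cells with an analog-sensitive Ypk1 (AS Ypk1, Cy5 channel), whose altered ATP site accepts a bulky inhibitor, were set against cells with wild-type Ypk1 (WT Ypk1, Cy3 channel), both treated with 2,3-DMB-PPI at 0.5 µM for 0, 15, 30 or 60 min. In the Ypk2 series, AS Ypk2 cells were set against WT Ypk2 cells in the same way with 3-MB-PPI at 1 µM. The remaining array set WT Ypk2 cells (Cy5) against WT Ypk1 cells (Cy3) without inhibitor. Each condition has 1 array, no dye was swapped, and the labels do not say whether the times of a series came from separate cultures, nor which promoter drives the plasmid genes. Kinase and inhibitor change together between the series and cannot be told apart.

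A patch begins when early coat proteins and clathrin adaptors gather on the plasma membrane, followed by a late coat that links membrane, cargo and actin. Activators of the Arp2/3 complex then start a burst of branched actin that bends the membrane inward, amphiphysins help to pinch off the vesicle, and cofilin, its helpers and the patch kinases dismantle the structure. Ypk1 and Ypk2 act below TOR complex 2, which is known for its part in the polarity of the actin cytoskeleton, and Ypk1 controls flippase kinases that restrain the patch kinase Akl1. These links act largely on proteins, while the arrays measure transcripts, and the comparison asks which transcripts of the patch depend on kinase activity.

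Values are log2 ratios of Cy5 over Cy3 with the median of each array set to 0, so that 1 is a 2-fold difference. The mean of the ratios at 15, 30 and 60 min is called the later ratio. It was tested against 0 with limma across 6220 features, and a gene passed at a Benjamini-Hochberg adjusted p under 0.05. The p-value measures the spread between times and not between cultures. A change is the later ratio minus the ratio at 0 min. On the WT array, YPK2 stood at 5.49 and YPK1 at −4.33, which sets the direction of the ratio there, and the same direction is taken for the other arrays. The plasmid-borne kinase genes differed between the strains compared: YPK1 was at 0.73, 0.82, 2.44 and 1.55 over the Ypk1 series, and YPK2 at 1.06, 1.36, 1.53 and 1.36 over the Ypk2 series. YPK2, which both strains of the Ypk1 series lack, was at 0.25 to 1.42 there. Array medians before centring ran from −0.52 to 0.23, and the number of features at least 2-fold apart was 375 and 303 at 0 min, 319 on the WT array, and between 756 and 1560 after inhibitor. The values hold no intensities, so a dye effect could not be measured. Ratios do not separate more of a transcript in AS cells from less in WT cells.

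After inhibitor, transcripts of actin itself and of many patch proteins were higher in AS than in WT cells, and a few subunits were lower. These are ratios against 0 and not changes from 0 min. ACT1 was already at 1.24 and 1.00 at 0 min, and no member passed for the change in either series. For the later ratio averaged over both series, 16 of 41 members were higher (39%), 4 were lower (9.76%) and 21 did not pass. Over all features, 31.1% passed, 16.1% as higher and 15.1% as lower. The median of the members was 0.37, against 0.01 for all features. The higher members were ACT1, ARP2, ARC18, ARC19, ARC35, ARC40, MYO3, ENT2, RVS161, ABP1, SAC6, COF1, AIP1, PFY1, ARK1 and AKL1, and the lower ones were ARP3, ARC15, CHC1 and CAP1. Without centring, the median of all features lay at −0.27 and that of the members at 0.08, and 7 of 13 calls among the members were higher (53.8%, against 80% of 20 calls with centring). Regardless of the test, 11 members were above 0 on all 6 later arrays (26.8%, against 14.9% of all features), and ARP3, ARC15 and CAP1 were at or below 0 on all 6 (7.32%, against 15.3%). The count of 20 became 11 without the Ypk1 array at 30 min, 13 without Ypk1 60 min, and 9 without either Ypk2 30 min or Ypk2 60 min.

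**Figure D1:**
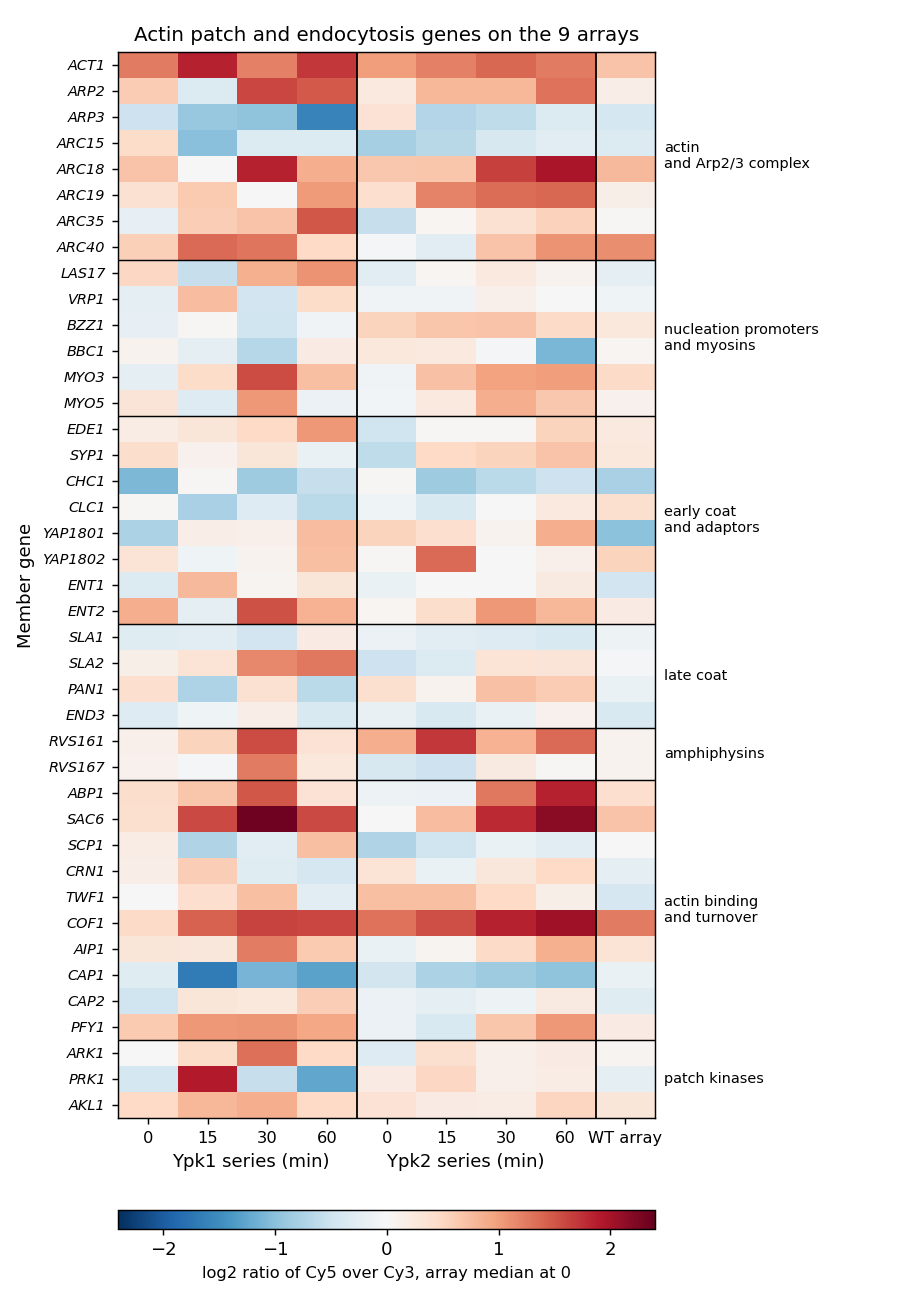
Centred log2 ratio (colour scale, Cy5 over Cy3) of each of the 41 members (rows, grouped by role) on the 9 arrays (columns: time with inhibitor in min for both series, then the WT array). ACT1, COF1 and SAC6 stay above 0 on all 8 arrays of the time courses, from 0.01 (SAC6 at 0 min in the Ypk2 series) up to 2.34, and CAP1 is below 0 on all 8.

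In the series taken alone, 10 members were higher and 2 lower with Ypk1 (24.4% and 4.88%, where 10.9% and 10.5% of all features passed), with a median of 0.38. With Ypk2, 6 were higher and 1 lower (14.6% and 2.44%, where 6.98% and 4.73% of all features passed), with a median of 0.32. Without centring, 3 of 8 calls with Ypk1 were higher (37.5%, against 83.3% with centring) and 4 of 7 with Ypk2 (57.1%, against 85.7%), and with arrays scaled to 1 spread 66.7% of the calls with Ypk1 were higher. ACT1, COF1, SAC6 and CAP1 passed in both series. Those that passed in the Ypk1 series but not in the Ypk2 series were AKL1, ARC35, ARC40, ARK1, ARP3, MYO3, PFY1 and SLA2, and the reverse held for ARC18, ARC19 and RVS161. More calls with Ypk1 were not particular to the members, as 21.5% of all features passed with Ypk1 and 11.7% with Ypk2. The overlap of calls between the series was not counted over all features. The difference between the series was tested itself, and limma called 0 members and 0 of all features. An unadjusted p under 0.05 was reached by 3 of 41 members and 602 of 6220 features. Of these members, ARC19 had a later ratio of 0.55 ± 0.51 (SD, n = 3) with Ypk1 and 1.31 ± 0.10 (SD, n = 3) with Ypk2, for a difference of −0.76 ± 0.33 (SE; adjusted p = 0.512). SLA2 differed by 0.81 ± 0.36 (adjusted p = 0.516) and BZZ1 by −0.78 ± 0.28 (adjusted p = 0.465). The count of 12 calls in the Ypk1 series was 6 without its 30 min or its 60 min array and 5 without Ypk2 30 min, and the 7 calls in the Ypk2 series became 1 without its 30 min or its 60 min array.

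**Figure D2:**
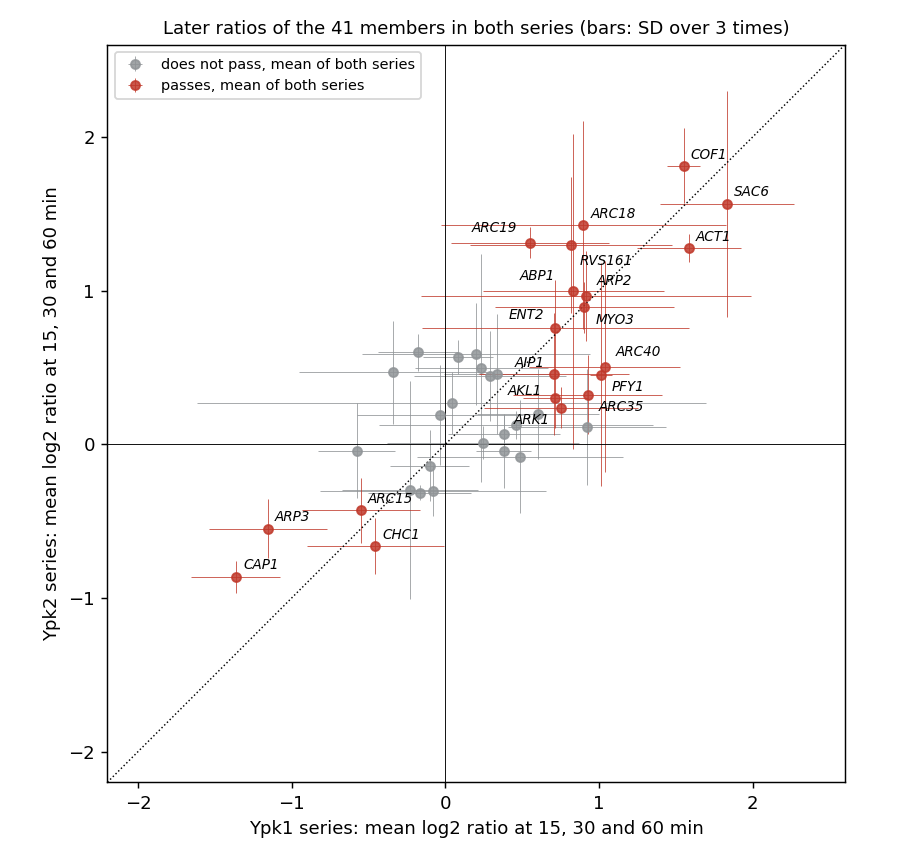
Later ratio of each member in the Ypk1 series (x axis, log2) and in the Ypk2 series (y axis, log2), with bars for the SD over 3 times and red for the 20 members that passed in the mean of both series. SAC6, COF1 and ACT1 lie at the upper right, between 1.28 and 1.83 on both axes, and CAP1 and ARP3 at the lower left; the dotted line marks equal values.

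All 8 genes for actin and its nucleator passed in the mean of both series (100%, against 31.1% of all features). Of these, 6 were higher (75%, against 16.1% of all features) and 2 were lower (25%, against 15.1%). ACT1 (YFL039C) is the only actin gene of this yeast. The ratio of ACT1 at 0, 15, 30 and 60 min was 1.24, 1.85, 1.20 and 1.70 in the Ypk1 series and 1.00, 1.21, 1.38 and 1.24 in the Ypk2 series. Every array was high for ACT1, those at 0 min included, and its 0 min values lay within or just below the range of the later ones. Its later ratio over both series was 1.43 ± 0.14 (SE; adjusted p = 0.000373), and it passed in each series, at 1.58 ± 0.34 (SD, n = 3) with Ypk1 and 1.28 ± 0.09 (SD, n = 3) with Ypk2. The change from 0 min did not pass, at 0.34 ± 0.41 (SE; adjusted p = 0.776) and 0.28 ± 0.41 (SE; adjusted p = 1). On the WT array, where neither inhibitor nor AS cells were present, ACT1 stood at 0.69.

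The Arp2/3 complex nucleates branched actin filaments and has 7 subunits, all of them members. Of these, 5 were higher and 2 lower, where 16.1% of all features were higher and 15.1% lower. Both actin-related subunits are needed to start a filament, yet their transcripts lay on opposite sides of 0. The ratio of ARP2 at 0, 15, 30 and 60 min was 0.61, −0.32, 1.60 and 1.47 in the Ypk1 series and 0.23, 0.79, 0.80 and 1.31 in the Ypk2 series. For ARP3, the values were −0.50, −0.91, −0.96 and −1.60 in the Ypk1 series and 0.34, −0.70, −0.62 and −0.34 in the Ypk2 series. ARP3 was below 0 on all 6 later arrays and below its own 0 min value on each, whereas ARP2 was above 0 on all later arrays but Ypk1 15 min. The later ratios were 0.94 ± 0.25 (SE; adjusted p = 0.0223) for ARP2 and −0.85 ± 0.15 (SE; adjusted p = 0.00379) for ARP3. Among the smaller subunits, ARC18 was at 0.69, −0.01, 1.84 and 0.86 in the Ypk1 series and 0.64, 0.67, 1.64 and 1.97 in the Ypk2 series. It was high at 30 and 60 min in both series and near 0 at 15 min with Ypk1, with a later ratio of 1.16 ± 0.26 (SE; adjusted p = 0.0101). ARC19 was at 0.36, 0.64, 0.00 and 1.01 in the Ypk1 series and 0.40, 1.20, 1.35 and 1.39 in the Ypk2 series, with its Ypk2 values after inhibitor all above 1, and a later ratio of 0.93 ± 0.16 (SE; adjusted p = 0.00346). ARC40 encodes the WD-repeat subunit, and ARC35 a core subunit that contacts the mother filament. ARC40 was at 0.56, 1.35, 1.29 and 0.47 in the Ypk1 series and −0.04, −0.26, 0.69 and 1.08 in the Ypk2 series, with a later ratio of 0.77 ± 0.21 (SE; adjusted p = 0.0232). ARC35 was at −0.19, 0.60, 0.69 and 1.49 in the Ypk1 series and −0.56, 0.04, 0.37 and 0.55 in the Ypk2 series, and each later value exceeded its own 0 min value, with a later ratio of 0.62 ± 0.17 (SE; adjusted p = 0.0222). ARC15 was below 0 on all 6 later arrays, at 0.45, −0.996, −0.34 and −0.32 in the Ypk1 series and −0.79, −0.66, −0.39 and −0.24 in the Ypk2 series, with a later ratio of −0.49 ± 0.15 (SE; adjusted p = 0.0395). In the Ypk2 series ARC15 was lowest at 0 min, so its later values there lay above their start. In the mean of both series, ACT1, ARP3, ARC18 and ARC19 passed under all 12 alternative settings that could alter it, and ARP2, ARC15, ARC35 and ARC40 did not. The calls in the Ypk2 series alone were kept under 10 of 12 for ACT1 and ARC19 and under 8 of 12 for ARC18.

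Of the 6 genes that switch the Arp2/3 complex on or restrain it, 1 passed (16.7%, against 31.1% of all features). MYO3 and MYO5 encode the paralogous type I myosins, motors that push at the membrane and activate Arp2/3. The ratio of MYO3 at 0, 15, 30 and 60 min was −0.23, 0.43, 1.56 and 0.72 in the Ypk1 series and −0.09, 0.70, 0.97 and 1.00 in the Ypk2 series. All 6 later values of MYO3 exceeded both 0 min values, where 11.9% of all features had all 6 above their own 0 min value. The later ratio of MYO3 was 0.90 ± 0.17 (SE; adjusted p = 0.00548). MYO5 was at 0.31, −0.32, 1.05 and −0.14 in the Ypk1 series and −0.07, 0.23, 0.88 and 0.65 in the Ypk2 series, with values on both sides of 0 in the Ypk1 series and a later ratio that did not pass, 0.39 ± 0.20 (SE; adjusted p = 0.174). The WASP homologue LAS17 had a mean of 0.29 ± 0.60 (SD, n = 6) over the later arrays, and its partner VRP1, the yeast verprolin, had 0.13 ± 0.42 (SD, n = 6). The F-BAR protein gene BZZ1 stood at 0.21 ± 0.46 (SD, n = 6), and BBC1, which encodes an inhibitor of Las17, at −0.27 ± 0.53 (SD, n = 6). None of these 4 passed, with adjusted p from 0.281 to 0.614.

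Of the 8 early coat and adaptor genes, 2 passed (25%, against 31.1% of all features), 1 in each direction. ENT2, an epsin that ties membrane and cargo to the actin coat, was at 0.87, −0.21, 1.53 and 0.83 in the Ypk1 series and 0.05, 0.42, 1.05 and 0.79 in the Ypk2 series. It was above 0 on 5 of 6 later arrays, with a later ratio of 0.74 ± 0.22 (SE; adjusted p = 0.0348), and its 0 min value in the Ypk1 series was as high as that at 60 min. CHC1, the clathrin heavy chain, was at −1.07, 0.03, −0.85 and −0.55 in the Ypk1 series and 0.02, −0.86, −0.64 and −0.49 in the Ypk2 series. Its lowest value was that at 0 min in the Ypk1 series, and its later ratio was −0.56 ± 0.16 (SE; adjusted p = 0.0276). The light chain gene CLC1 had a later mean of −0.31 ± 0.39 (SD, n = 6), which did not pass. EDE1, the Eps15-like protein that starts a patch, had 0.40 ± 0.38 (SD, n = 6), and SYP1, an early F-BAR protein, had 0.32 ± 0.31 (SD, n = 6). The AP180 homologues YAP1801 and YAP1802 stood at 0.40 ± 0.34 (SD, n = 6) and 0.37 ± 0.56 (SD, n = 6), and the epsin ENT1 at 0.22 ± 0.30 (SD, n = 6). EDE1 and YAP1801 were above 0 on all 6 later arrays, yet their adjusted p was 0.0891 and 0.0978.

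None of the 4 late coat genes passed in the mean of both series (31.1% of all features did). SLA2 encodes the Hip1R homologue that couples the coat to actin. The ratio of SLA2 at 0, 15, 30 and 60 min was 0.13, 0.33, 1.16 and 1.27 in the Ypk1 series and −0.50, −0.32, 0.34 and 0.32 in the Ypk2 series. It passed in the Ypk1 series, where the later ratio was 0.92 ± 0.25 (SE; adjusted p = 0.0326), and not in the Ypk2 series, at 0.11 ± 0.25 (SE; adjusted p = 0.826), and each later value exceeded its own 0 min value. The call of SLA2 in the Ypk1 series was kept under 6 of the 12 alternative settings that could alter it. SLA1, a coat adaptor that binds Las17, was at −0.29, −0.25, −0.46 and 0.20 in the Ypk1 series and −0.13, −0.27, −0.30 and −0.37 in the Ypk2 series, below 0 on every array except Ypk1 60 min, with a later ratio of −0.24 ± 0.14 (SE; adjusted p = 0.230). Its coat partners PAN1 and END3 had later means of 0.06 ± 0.62 (SD, n = 6) and −0.12 ± 0.22 (SD, n = 6). Of the amphiphysin genes, RVS161 passed and RVS167 did not. RVS161 was at 0.12, 0.53, 1.57 and 0.35 in the Ypk1 series and 0.87, 1.71, 0.83 and 1.35 in the Ypk2 series, above 0 throughout, with a later ratio of 1.06 ± 0.20 (SE; adjusted p = 0.00500). RVS167 was at 0.10, −0.04, 1.24 and 0.26 in the Ypk1 series and −0.39, −0.49, 0.22 and 0.03 in the Ypk2 series, with 1 value above 1, and its later ratio did not pass, at 0.20 ± 0.20 (SE; adjusted p = 0.462).

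The 2 largest later ratios belonged to genes for proteins that bind, bundle and recycle actin filaments. Of these 10 genes, 5 were higher (50%, against 16.1% of all features) and 1 was lower (10%, against 15.1%). SAC6 (fimbrin) cross-links the filaments of the patch. The ratio of SAC6 at 0, 15, 30 and 60 min was 0.39, 1.58, 2.34 and 1.58 in the Ypk1 series and 0.01, 0.75, 1.79 and 2.17 in the Ypk2 series. Both 0 min values lay below all 6 later values. All 6 later values lay above their own 0 min value in 11.9% of all features. The later ratio of SAC6 was 1.70 ± 0.21 (SE; adjusted p = 0.000735), a 3.25-fold difference. Its change from 0 min was 1.44 ± 0.59 (SE; adjusted p = 0.409) with Ypk1 and 1.56 ± 0.59 (SE; adjusted p = 0.918) with Ypk2, of a like size in both series and not past the threshold in either. COF1 (cofilin) severs old filaments. The ratio of COF1 at 0, 15, 30 and 60 min was 0.46, 1.42, 1.62 and 1.61 in the Ypk1 series and 1.30, 1.55, 1.84 and 2.04 in the Ypk2 series. Both 0 min values lay below all 6 later ones, although that of the Ypk2 series came close to the lowest of them. Its later ratio was 1.68 ± 0.14 (SE; adjusted p = 0.000204), and on the WT array COF1 stood at 1.25. It was 1 of 2 members at least 2-fold higher there, with ARC40 at 1.12 (2.74% of all features), and 0 members were as far below (2.35%).

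**Figure D3:**
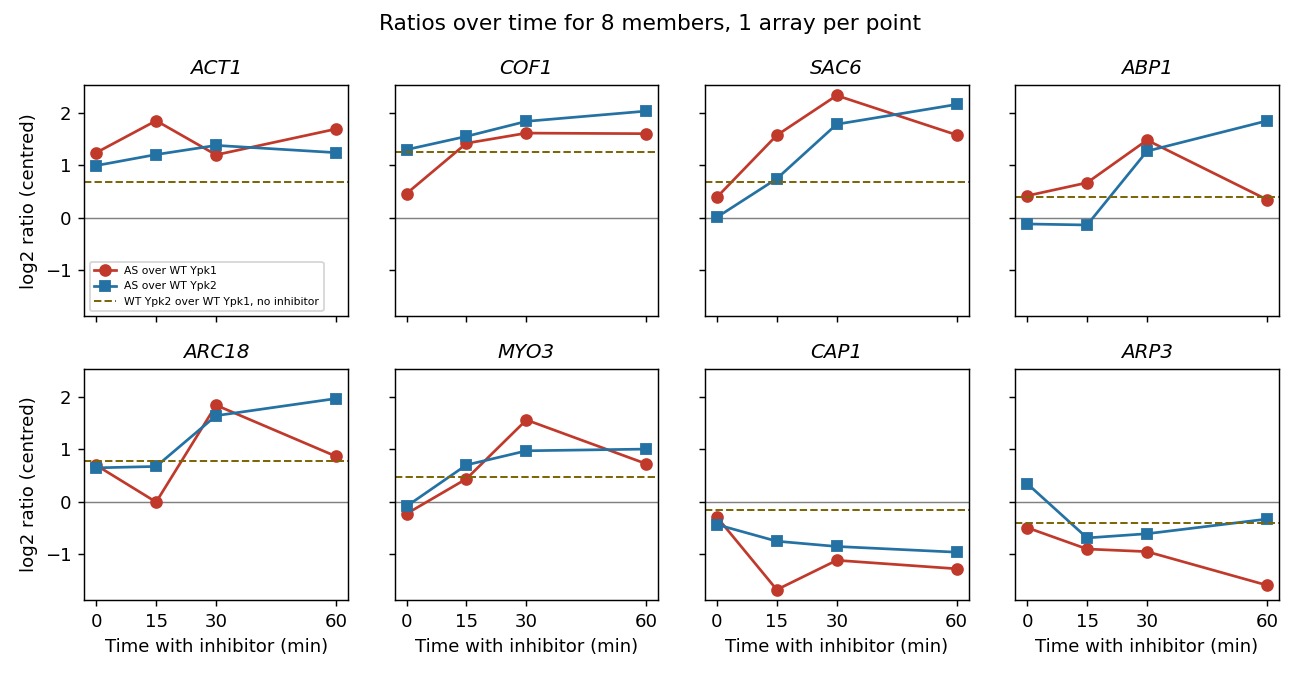
Centred log2 ratio (y axis) against time with inhibitor in min (x axis) for 8 members, 1 array per point, with the Ypk1 series in red, the Ypk2 series in blue and the value on the WT array as a dashed line. SAC6 starts at 0.39 and 0.01 and reaches 2.34 and 2.17, ACT1 starts at 1.24 and 1.00, and CAP1 and ARP3 stay below 0 at all later times.

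Helpers of cofilin and of actin monomers followed with smaller ratios. AIP1, which assists cofilin, was at 0.29, 0.27, 1.23 and 0.62 in the Ypk1 series and −0.17, 0.06, 0.46 and 0.85 in the Ypk2 series, with a later ratio of 0.58 ± 0.18 (SE; adjusted p = 0.0360). PFY1, the profilin that recharges monomers, was at 0.63, 1.05, 1.06 and 0.93 in the Ypk1 series and −0.14, −0.36, 0.67 and 1.05 in the Ypk2 series, with a later ratio of 0.73 ± 0.19 (SE; adjusted p = 0.0201). With Ypk1 its 3 later values lay within 0.93 to 1.06, while with Ypk2 they ran from below 0 up to 1.05. ABP1, which binds actin filaments and recruits the patch kinases, was at 0.42, 0.67, 1.48 and 0.35 in the Ypk1 series and −0.12, −0.14, 1.27 and 1.85 in the Ypk2 series. It was high at 30 min in both series and at 60 min with Ypk2, and its later ratio was 0.91 ± 0.26 (SE; adjusted p = 0.0295). The calponin SCP1, the coronin CRN1 and the twinfilin TWF1 had later means of −0.19 ± 0.49 (SD, n = 6), 0.08 ± 0.42 (SD, n = 6) and 0.37 ± 0.37 (SD, n = 6), and none passed.

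Capping protein, a dimer of the products of CAP1 and CAP2, stops the growth of barbed ends. The ratio of CAP1 at 0, 15, 30 and 60 min was −0.29, −1.69, −1.12 and −1.29 in the Ypk1 series and −0.44, −0.76, −0.86 and −0.97 in the Ypk2 series. Every later value of CAP1 lay below both 0 min values, where 12.1% of all features had all 6 at or below their own 0 min value. The later ratio of CAP1 was −1.11 ± 0.14 (SE; adjusted p = 0.000794). It passed in both series. The call in the Ypk2 series was kept under 9 of the 12 alternative settings that could alter it, and those in the Ypk1 series and the mean of both under all 12. CAP2 had a later mean of 0.17 ± 0.30 (SD, n = 6) and did not pass (adjusted p = 0.396). Within arrays, CAP1 lay below CAP2 on 6 of 6 later arrays, with a mean difference of −1.28 ± 0.59 (SD, n = 6), against differences of 0.19 and −0.29 at 0 min. ARP2 lay above ARP3 on 6 of 6 later arrays, by 1.79 ± 0.88 (SD, n = 6), against 1.11 and −0.12 at 0 min. RVS161 exceeded its partner RVS167 on 6 of 6, by 0.85 ± 0.78 (SD, n = 6), and in the Ypk2 series it did so by 1.26 already at 0 min. MYO3 exceeded its paralog MYO5 on 6 of 6, by 0.50 ± 0.28 (SD, n = 6), with −0.54 and −0.02 at 0 min. The other pairs did not differ in 1 direction throughout: CHC1 minus CLC1 was −0.25 ± 0.60 (SD, n = 6), ENT1 minus ENT2 −0.51 ± 0.83 (SD, n = 6), YAP1801 minus YAP1802 0.03 ± 0.55 (SD, n = 6) and ARK1 minus PRK1 0.34 ± 1.26 (SD, n = 6). These differences were not tested, and an array spot may bind the transcript of a paralog.

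**Figure D4:**
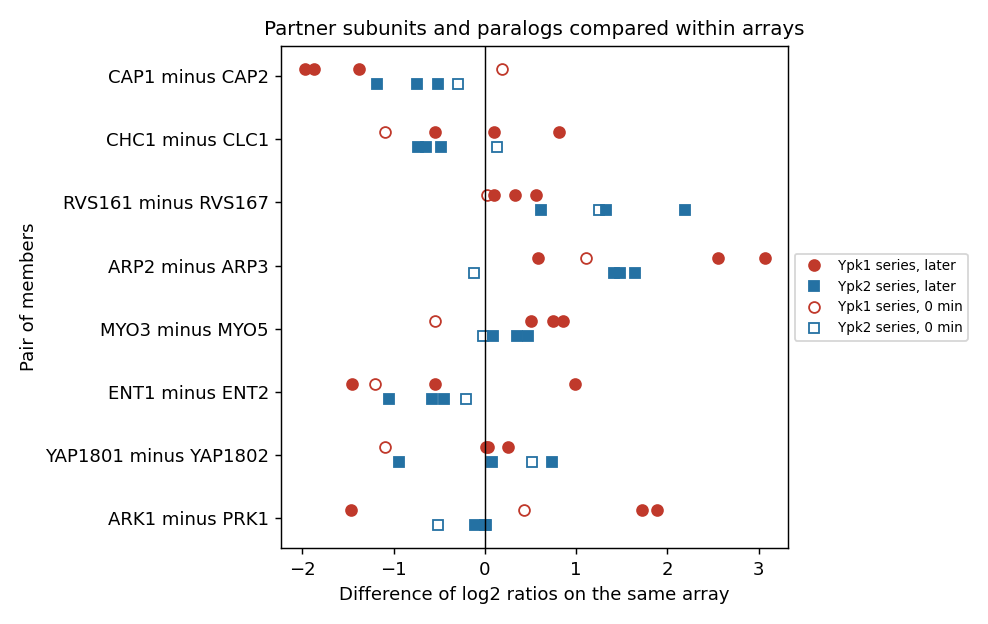
Difference of the log2 ratios of partner or paralogous genes on the same array (x axis) for 8 pairs (y axis), with filled symbols for the 3 later times, open symbols for 0 min, circles for the Ypk1 series and squares for the Ypk2 series. All 6 later points of CAP1 minus CAP2 lie below 0, and those of ARP2 minus ARP3, RVS161 minus RVS167 and MYO3 minus MYO5 lie above 0.

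The kinases Ark1, Prk1 and Akl1 phosphorylate coat proteins and so release them from the patch. Of their genes, 2 of 3 were higher (66.7%, against 16.1% of all features), by small amounts. AKL1 was at 0.48, 0.79, 0.87 and 0.47 in the Ypk1 series and 0.34, 0.20, 0.18 and 0.52 in the Ypk2 series. Its later values lay on both sides of those at 0 min, with a later ratio of 0.51 ± 0.14 (SE; adjusted p = 0.0245) and a change of 0.23 ± 0.39 (SE; adjusted p = 0.845) and −0.04 ± 0.39 (SE; adjusted p = 1). ARK1 was at 0.01, 0.44, 1.33 and 0.49 in the Ypk1 series and −0.31, 0.39, 0.13 and 0.19 in the Ypk2 series, each later value above its own 0 min value, with a later ratio of 0.50 ± 0.16 (SE; adjusted p = 0.0472). PRK1 was at −0.42, 1.91, −0.55 and −1.24 in the Ypk1 series and 0.20, 0.50, 0.12 and 0.18 in the Ypk2 series, with its highest value at 15 min and its lowest at 60 min in the Ypk1 series and little spread with Ypk2. Its later ratio was 0.16 ± 0.35 (SE; adjusted p = 0.764). In the mean of both series, the call of AKL1 was kept under 8 of the 12 alternative settings that could alter it, and that of ARK1 under 4. Their calls in the Ypk1 series alone were kept under 4 of 12 for AKL1 and 2 of 12 for ARK1.

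Ratios before the inhibitor were set beside the later ones. Of the 20 members that passed, 10 had the sign of the later ratio on both 0 min arrays (50%, against 47.8% of the 1937 features that passed). On the WT array, 20 of 20 had that sign (100%, against 72.4% of the features that passed), although neither the AS alleles nor the inhibitors were used there. These values ran up to 1.25 for COF1, but several were near 0, with ARC35 at 0.03, ARK1 at 0.07 and RVS161 at 0.08. The median of the WT array before centring was −0.14, so ARC35, ARK1 and RVS161 lay below 0 without centring. The mean of the 2 arrays at 0 min reached at least 50% of the later ratio for ACT1 (78.3%), ARC18 (57.5%), CHC1 (94.1%), ENT2 (62.6%), COF1 (52.4%) and AKL1 (81.1%), or 30% of the 20 members against 23.5% of all features that passed. For SAC6 it was 11.8%, for ABP1 16.4%, for AIP1 10.5%, for ARP3 9.19% and for CAP1 33.0%, and for ARC35, MYO3 and ARK1 it had the opposite sign. All 6 later ratios had the same sign for 12 of the 20 members (60%, against 80.3% of the features that passed), and all 6 lay past their own 0 min for 7 (35%, against 51.8%). AS cells were always in the Cy5 channel, as were the WT Ypk2 cells of the WT array, so a difference between strains and a dye effect cannot be told apart in these values.

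**Figure D5:**
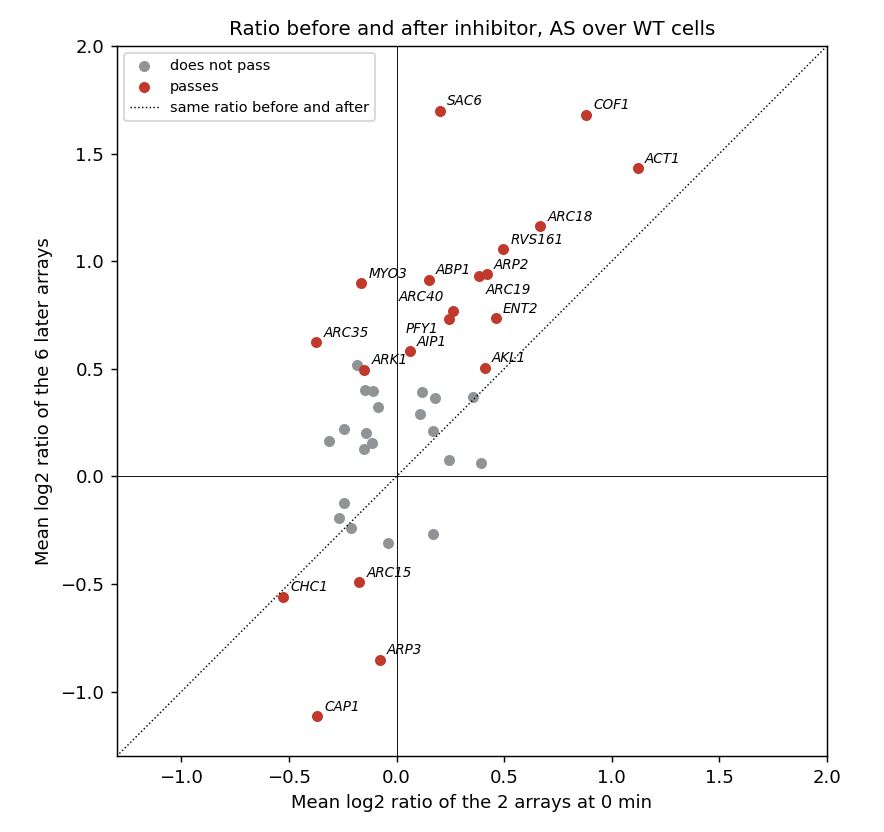
Mean log2 ratio of the 2 arrays at 0 min (x axis) against the mean of the 6 later arrays (y axis) for the 41 members, with red for those that passed in the mean of both series and a dotted line where both are equal. SAC6 lies far above the line at 0.20 and 1.70, ACT1 nearer to it at 1.12 and 1.43, and CHC1 almost on it at −0.53 and −0.56.

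When the 0 min array was subtracted, no member passed. The median change was 0.30 with Ypk1 and 0.40 with Ypk2, against 0.01 and 0.03 for all features. With Ypk1 that of the members was 0.07 with arrays scaled to 1 spread (all features 0.02), 0.12 with quantile normalization (all features 0.04), −0.21 without centring (all features −0.51) and 0.15 without Ypk1 30 min. Limma called 0 members in either series, and 0.0482% of all features with Ypk1 and 0% with Ypk2. An unadjusted p under 0.05 was reached by 7 of 41 members and 703 of 6220 features with Ypk1, and by 2 of 41 members and 321 of 6220 features with Ypk2. With Ypk1 these members were SAC6, YAP1801, MYO3, ARC35 and COF1, with positive changes, and CAP1 and ARC15, with negative ones. CAP1 had a change of −1.07 ± 0.40 (SE; adjusted p = 0.352) and COF1 of 1.09 ± 0.39 (SE; adjusted p = 0.344). With Ypk2 they were SAC6 and SYP1, the latter at 1.17 ± 0.39 (SE; adjusted p = 0.837). All 6 later values lay above their own 0 min value for ARC35, MYO3, EDE1, ENT1, SLA2, SAC6, COF1 and ARK1 (19.5% of members, 11.9% of all features), and below or at it for ARP3 and CAP1 (4.88%, against 12.1%). In the Ypk2 series, 20 members had all 3 later values above 0 min (48.8%, against 27.8%), and in the Ypk1 series 13 had (31.7%, against 28%).

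The order in time was examined by averaging the series at each time, so that here the p-value measures the spread between the series. The median difference from 0 min was 0.11 at 15 min, 0.29 at 30 min and 0.36 at 60 min, while that of all features stayed between −0.02 and 0.00. At 15 min the median of the members was −0.03 with scaled arrays, the same as that of all features, 0.06 with quantile normalization, −0.24 without centring (all features −0.38) and 0.20 without Ypk2 15 min. Without centring it was 0.05 at 30 min and 0.10 at 60 min, with all features at −0.26 at both times. At 30 and 60 min the median of the members was 0.36 and 0.28 with scaled arrays, and 0.40 and 0.30 with quantile normalization. It was 0.53 and 0.39 without Ypk1 0 min, and 0.46 and 0.36 without Ypk2 30 min. The rise from 30 to 60 min was thus absent under these settings. It was also absent without Ypk2 60 min (0.29 and 0.26) and without Ypk2 0 min (0.40 and 0.38). Without Ypk1 30 min the medians were 0.35 and 0.36, while without Ypk1 60 min the rise was larger (0.29 and 0.50). No member passed at any time by limma. At an unadjusted p under 0.05 there were 2, 7 and 6 of 41 members at 15, 30 and 60 min, against 676, 749 and 858 of 6220 features. Of all features, 0% passed at 15 min, 0.193% at 30 min (0.161% higher, 0.0322% lower) and 0.675% at 60 min (0.482% higher, 0.193% lower). SAC6 differed from 0 min by 0.96 ± 0.43 (SE; adjusted p = 0.453) at 15 min, 1.86 ± 0.43 (SE; adjusted p = 0.132) at 30 min and 1.67 ± 0.43 (SE; adjusted p = 0.116) at 60 min. ARC35 reached 1.39 ± 0.39 (SE; adjusted p = 0.130) at 60 min and MYO3 1.43 ± 0.40 (SE; adjusted p = 0.177) at 30 min. Between 15 and 60 min, no member passed either, with ARP2 at 1.15 ± 0.48 (SE; adjusted p = 0.531), ARC18 at 1.09 ± 0.43 (SE; adjusted p = 0.525) and PRK1 at −1.73 ± 0.58 (SE; adjusted p = 0.420). On single arrays, the number of members at least 2-fold higher in AS cells was 1, 6, 16 and 9 at 0, 15, 30 and 60 min with Ypk1, and 1, 5, 7 and 11 with Ypk2. The shares of all features were 4.39%, 12.1%, 9.74% and 12.3% with Ypk1, and 4.74%, 9.46%, 7.82% and 10.1% with Ypk2. At least 2-fold lower were 1, 1, 1 and 3 members with Ypk1 (1.6%, 12.8%, 9.16% and 9.03% of features) and 0, 0, 0 and 1 with Ypk2 (0.0957%, 3.69%, 4.24% and 6.62%).

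Other genes of actin and membrane traffic were counted from 4 lists of 57 genes outside the members, of which 56 were in the table. Of 19 further patch and endocytosis genes, 5 passed in the mean of both series (26.3%, against 31.1% of all features), 4 of them higher and 1 lower (median 0.25). SCD5, whose product brings the phosphatase Glc7 to patches, was at 0.09, 1.03, 1.73 and 1.22 in the Ypk1 series and 0.65, 0.85, 1.09 and 0.84 in the Ypk2 series, with all later values above their own 0 min and a later ratio of 1.13 ± 0.15 (SE; adjusted p = 0.000925). The auxilin gene SWA2, whose product strips clathrin from vesicles, had 0.64 ± 0.18 (SE; adjusted p = 0.0239), and YSC84, an actin-binding SH3 protein, had −0.61 ± 0.19 (SE; adjusted p = 0.0396). Among 15 genes for formins, cables and cytokinesis, 5 passed (33.3%, against 31.1% of all features), and the median of the list was −0.18. Of the list, 1 gene was higher (6.67%, against 16.1% of all features) and 4 were lower (26.7%, against 15.1%). HOF1, an F-BAR protein of the bud neck, had −0.84 ± 0.16 (SE; adjusted p = 0.00511), the formin activator BUD6 −0.61 ± 0.17 (SE; adjusted p = 0.0248) and the polarisome gene PEA2 −0.54 ± 0.13 (SE; adjusted p = 0.0160). The higher gene was CDC42, the polarity GTPase, at 0.48 ± 0.15 (SE; adjusted p = 0.0372).

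Among 10 genes for phosphoinositides of the plasma membrane, which recruit epsins and other adaptors, 4 passed (40%, against 31.1% of all features), INP52 as higher and 3 as lower (median −0.07). YPP1, needed to place the kinase Stt4 at the membrane, had the lowest ratio of the 4 lists, at −0.21, −1.50, −2.47 and −3.87 in the Ypk1 series and −0.90, −2.26, −2.77 and −3.07 in the Ypk2 series, with a later ratio of −2.66 ± 0.28 (SE; adjusted p = 0.000404); it stood at −1.61 on the WT array. EFR3, of the same complex, had −0.76 ± 0.15 (SE; adjusted p = 0.00547). The synaptojanin INP52 had 0.96 ± 0.27 (SE; adjusted p = 0.0275), with 2.22 at 0 min in the Ypk1 series and 2.38 at 15 min in the Ypk2 series as its highest values. Of 12 genes for the ubiquitin ligase Rsp5 and its adaptors, which mark cargo for uptake, 4 passed (33.3%, against 31.1% of all features). All 4 were higher, where 16.1% of all features were higher, and the median of the list was 0.38. The arrestin-related CSR2 was at −0.48, −0.09, 0.96 and 1.15 in the Ypk1 series and 0.19, 1.42, 2.12 and 1.86 in the Ypk2 series, with a later ratio of 1.24 ± 0.19 (SE; adjusted p = 0.00209), ECM21 had 0.87 ± 0.17 (SE; adjusted p = 0.00528) and BUL1 0.59 ± 0.13 (SE; adjusted p = 0.0109). No test of the difference between lists was made.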

How the data were processed

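The deposited values are log2 ratios of the 2 channels of each array; how the authors normalized them, the scanner and the array design are not given in the sources used here. The log2 scale was read from the values, as 100% lie on a ratio grid of 0.001 if taken as log2 and at most 52.1% on any array if taken as log10. The direction was read from YPK1 and YPK2 on the WT array and assumed elsewhere; array correlations over all features ran from 0.13 to 0.75. Features were named through RefSeq's R64 table by systematic name (5777 of 6268 matched), used for names and gene order only. No build is named for the arrays, so no coordinates are given.

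Each array was centred on its median over all features. The fit used 6220 features with a value on the 8 time course arrays and left out 48. Limma 3.58.1 (R 4.3.3) fitted means per kinase, before and after inhibitor (4 residual degrees of freedom), and, for the time comparison, time plus kinase (3 degrees). The lone 0 min array of a series is assumed to vary like the others, and the number of arrays limits the precision. Both fits were run on simulated data with known changes and independent noise on each array. That check does not cover times that share a culture. Named members are those that passed any test, the 2 of each role with the largest absolute later ratio over both series, and ACT1, AKL1, ARK1 and PRK1, and up to 3 passing genes of each wider list. CDC42 was added because it was the lone higher gene of its list, after its value was seen. Members and lists were chosen with earlier results of these data known. Alternatives were no centring, scaled arrays, quantile normalization, array weights, a robust variance prior, annotated features only, a pooled 0 min baseline and leaving out each array. A filter on dim spots was not possible without intensities.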

Additional observations from a re-analysis of the deposited data

Results flagged for a closer look

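The changes of 3 members ran in opposite directions in the 2 series on all later arrays, which is 7.32% of members against 7.91% of all features. ARC15 lay below its 0 min value with Ypk1 (change −0.996) and above it with Ypk2 (0.36), a difference of −1.36 ± 0.61 (SE). SYP1 had changes of −0.34 and 1.17, a difference of −1.51 ± 0.55. CHC1 had changes of 0.62 and −0.68, a difference of 1.30 ± 0.63. The test of the difference, added after these values were seen, gave an adjusted p of 0.998 for each by limma, and each change rests on the lone 0 min array of its series.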

How the results depend on the processing

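Among the 20 members that passed in the mean of both series, 9 passed under all 12 alternatives that could alter that comparison (ACT1, ARP3, ARC18, ARC19, MYO3, RVS161, SAC6, COF1 and CAP1), and of the genes followed none of the called values changed sign. The count of 20 was 13 without centring and 9 to 20 with 1 array left out. The count in the Ypk1 series, 12, was 6 with scaled arrays and 5 to 13 with 1 array left out. In the Ypk2 series the count of 7 was 12 with scaled arrays, 27 with array weights, where 4157 of all features passed, and 1 to 10 with 1 array left out. With array weights, 2 members passed for the change in the Ypk2 series (SAC6, adjusted p = 0.0408, and SYP1, 0.0493) and 2 at 30 min against 0 min (SAC6, 0.0134, and MYO3, 0.0290). Without Ypk2 15 min, PRK1 passed at 15 min and for 60 against 15 min, so these counts ranged from 0 to 1. The number of member values at least 2-fold apart over the 9 arrays was 65, against 139 at 1.5-fold and 18 at 3-fold. Leaving out a 0 min array leaves the later ratios as they are, so it tests nothing there, and it gives no change for its series. The causes were not tested.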

Other observations

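Genes next to the members in the R64 annotation were examined after the values of the members were known. Of 37 tested neighbours of the 20 members that passed, 12 passed in the mean of both series (32.4%, against 31.1% of all features), 7 of them with the sign of the member. CAP1 (YKL007W) lies next to LAC1 (YKL008C), a ceramide synthase gene on the opposite strand, whose later ratio was −1.05 ± 0.17 (SE; adjusted p = 0.00237), close to the −1.11 of CAP1. PRP40, a splicing factor gene beside ARC19, had 1.49 ± 0.21 (adjusted p = 0.00135), the heme oxygenase gene HMX1 beside ENT2 had 1.28 ± 0.21 (adjusted p = 0.00284), and GCY1 beside PFY1 had 0.98 ± 0.17 (adjusted p = 0.00325). YCR087C-A beside ABP1 went the other way, at −1.42 ± 0.16 (adjusted p = 0.000530), as did UTP15 beside AIP1, at −0.96 ± 0.13 (limma adjusted p = 0.00111). SHE2 (−0.62) and PMU1 (−0.46) beside MYO3, and MPS1 (−0.47) beside ARP2, also passed with the sign opposite to the member. The neighbours of ACT1, SAC6 and COF1 did not pass.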
